A study of Danio rerio with 6 samples.

Results

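Wnt ligands, their receptors, their secreted antagonists and the proteins that carry the signal inside the cell were followed in RNA from cryoinjured zebrafish ventricle. The members were the genes of the deposited table whose name begins with wnt, fzd, dkk, sfrp, dvl, axin, ror1, ror2, rspo, lgr, tcf7 or notum, together with named single genes such as lrp5, ctnnb1, apc, lef1, wls and porcn. There were 41 such genes among the 14211 in the table. They comprised 3 ligands, 3 genes of ligand release or agonists, 14 receptors and membrane regulators, 7 secreted antagonists and 14 intracellular members. The symbol table held 89 IDs that met the rule, and the other 48, which include all genes named axin or notum, were not analysed here.

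One group of fish was given the gamma secretase inhibitor RO, and the control fish were given its DMSO carrier. Both were injected into the peritoneum 24 h and 48 h after cryoinjury, in which part of the ventricle is frozen, and the ventricle apex was collected at 72 h. All fish were adults of the AB strain and all hearts were injured, so no uninjured heart was compared. The dose of RO is not given in the labels. Each library was a pool of apices from 3 hearts, with 3 libraries given RO (replicates 2, 3 and 4) and 3 given DMSO (replicates 1, 2 and 3), and p-values measure only the spread between these pools. Gamma secretase cuts Notch receptors and many other membrane proteins, and no cleavage product was measured.

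The deposited values are scaled read counts, that is, whole reads divided by a factor for each library, so that each column sums to about the same total. They rest on 3649538 to 4463303 reads per RO library and 3306018 to 4015878 per DMSO library, and 1 read was worth 0.219 to 0.298. They were not divided by gene length, so the level of a gene is compared between libraries and not with that of another gene. The heart muscle markers MYL7 and TNNT2 were present in every library, with MYL7 at 9441 or more and TNNT2 at 3251 or more. Every library is whole tissue, in which fewer cells of a type and less RNA per cell cannot be told apart.

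Wnt proteins are lipid-modified secreted ligands that bind Frizzled receptors. With the coreceptors LRP5 and LRP6 and the adaptor Dishevelled they stop the destruction complex of APC, AXIN and GSK3 from breaking down beta-catenin, which then acts in the nucleus with TCF and LEF factors. Other ligands act through Frizzled and ROR receptors on cell polarity, calcium and small GTPases. In the injured zebrafish heart Wnt signalling and its secreted inhibitors are known for effects on heart muscle proliferation and on fibroblasts.

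The members that passed the test were a pair of Frizzled genes. FZD3 and FZD10 were about 2-fold lower in RO, and no member was higher past the threshold, an adjusted p of 0.05 from limma over all genes. The 2 lower members are 4.88% of the 41, where 0.387% of all genes passed as lower and 0.647% as higher, 1.03% in all. Both calls lay close to the threshold, and both were lost with quantile normalization, without the mean-variance trend of limma and with the replicate number as a block. The other 39 members did not pass.

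FZD3 (ENSDARG00000021664), a Frizzled known in mice for axon guidance and planar cell polarity, had values of 14.5, 8.98 and 9.004 in the RO libraries, against 22.6, 21.7 and 20.8 in the DMSO libraries. Every RO library lay below every DMSO library, and RO replicate 2 stood above the other two RO libraries. FZD3 was 2.01-fold lower in RO (log2 fold change -1.01, SE 0.203, 95% interval -1.45 to -0.56, adjusted p = 0.0464). It kept its call in DESeq2, which called 0.978% lower and 2.07% higher of the 7874 genes it gave an adjusted p. The call also held in edgeR, which called 0.394% of all genes lower and 0.704% higher, and when RO replicate 2 was left out. Leaving out any other single library ended the call, with adjusted p between 0.103 and 0.160 and log2 fold changes between -1.03 and -0.89.

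FZD10 (ENSDARG00000068213), another Frizzled receptor, had values of 3.35, 2.85 and 3.89 in the RO libraries, against 8.27, 8.52 and 7.74 in the DMSO libraries. The 3 libraries of each group lay close together and the groups did not overlap. Few reads stand behind these values, 12, 13 and 16 in the RO libraries against 34, 33 and 26 in the DMSO libraries. FZD10 was 2.26-fold lower in RO (log2 fold change -1.17, SE 0.240, 95% interval -1.70 to -0.65, adjusted p = 0.0473). Leaving out any of the 6 libraries ended the call, with adjusted p between 0.0671 and 0.155, while the log2 fold change stayed between -1.27 and -1.07.

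FZD5 (ENSDARG00000025420), a Frizzled needed for eye and vessel development in vertebrates, had the lowest log2 fold change of the 41 members, -1.41 (SE 0.320, 95% interval -2.11 to -0.71), and missed the threshold (adjusted p = 0.0716). Its values were 3.63, 3.94 and 3.16 in the RO libraries, against 15.3, 11.9 and 5.95 in the DMSO libraries. The groups did not overlap, but DMSO replicate 3 lay far below the other two DMSO libraries. Without DMSO replicate 3 FZD5 passed, with a log2 fold change of -1.78 (adjusted p = 0.0177).

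FZD2 (ENSDARG00000054438) had the most reads of the Frizzled genes. It had values of 44.4, 56.9 and 54.5 in the RO libraries, against 66.9, 75.9 and 61.3 in the DMSO libraries. The groups did not overlap, but the log2 fold change of -0.39 (95% interval -0.69 to -0.08) did not pass (adjusted p = 0.249). The remaining 5 Frizzled genes had overlapping groups. FZD7 was listed under 2 IDs, at 23.1 ± 4.10 in RO and 26.6 ± 3.14 in DMSO for ENSDARG00000060004, and at 32.1 ± 0.954 in RO and 29.2 ± 3.63 in DMSO for ENSDARG00000027589 (SD, n = 3 each). FZD9 also had 2 IDs, with log2 fold changes of -0.07 for ENSDARG00000014673 and 0.07 for ENSDARG00000035185. FZD8 (ENSDARG00000045444) rested on 3 to 17 reads per library, and its 95% interval of -1.37 to 0.92 is too wide at this depth to give a direction. Paralogs with the same symbol can share reads, so their single values are uncertain.

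The log2 fold change lay below 0 in 7 of the 9 Frizzled genes, whose median was -0.23, and 4 of them had lower values in all RO libraries than in any DMSO library. Over all genes 51.6% lay below 0, the median was -0.01, and 9.35% had groups that did not overlap with RO lower.

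**Figure D1:**
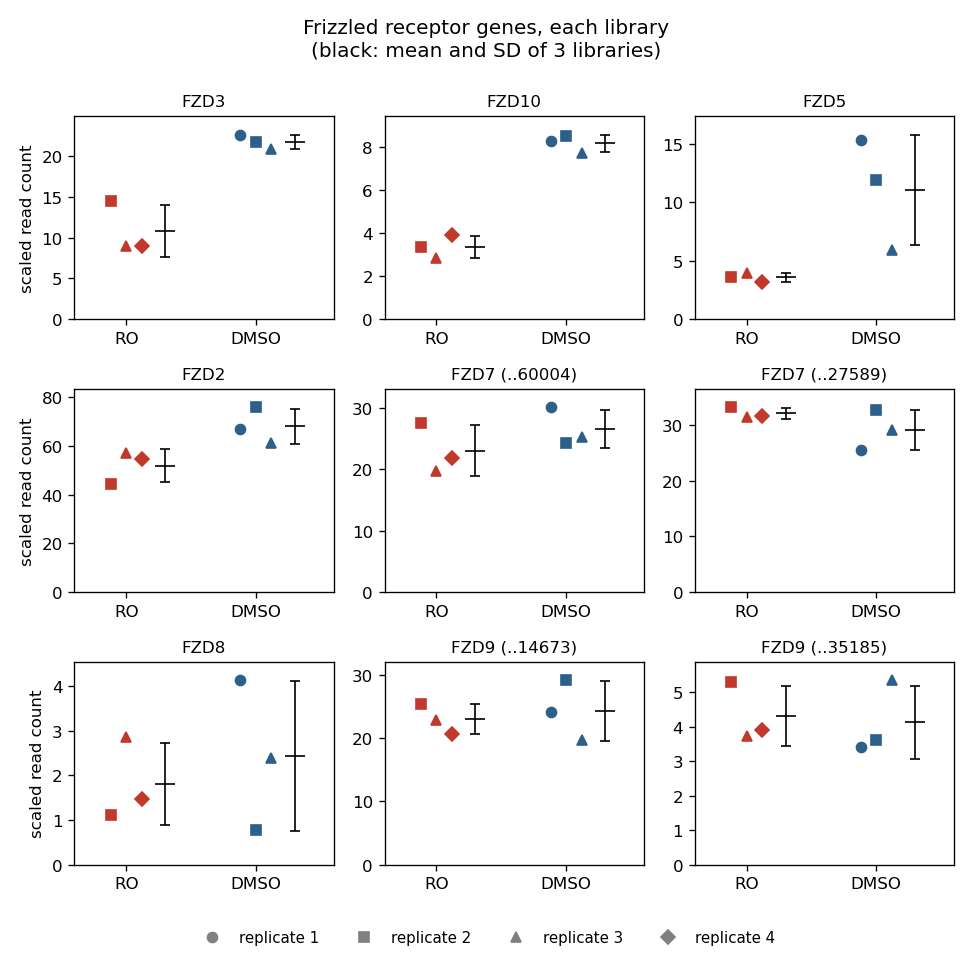
Scaled read count (y axis, from 0) of the 9 Frizzled genes in each library, RO at left in red and DMSO at right in blue; marker shapes give the replicate number and the black bars the mean and SD of 3 libraries. In the panels of FZD3, FZD10, FZD5 and FZD2 the RO points all lie below the DMSO points, and DMSO replicate 3 of FZD5, at 5.95, lies nearest to the RO libraries.

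The other receptors and membrane regulators did not pass. ROR2 (ENSDARG00000076227), a receptor tyrosine kinase family member that binds Wnt ligands of the beta-catenin-independent branch, had values of 39.7, 32.8 and 37.7 in the RO libraries, against 55.2, 41.6 and 42.6 in the DMSO libraries. Its groups did not overlap, and its log2 fold change was -0.33 (95% interval -0.65 to 0.00084, adjusted p = 0.374). ROR1 (ENSDARG00000015176), of the same family, had values of 6.42, 3.50 and 3.65 in the RO libraries, against 2.43, 2.32 and 5.66 in the DMSO libraries, and the groups overlapped. LRP5 (ENSDARG00000006921), a coreceptor of the beta-catenin branch, had values of 47.8, 43.4 and 38.0 in the RO libraries, against 48.1, 36.9 and 45.5 in the DMSO libraries. The 95% interval of its log2 fold change ran from -0.34 to 0.31. LGR4 (ENSDARG00000060542), a receptor for R-spondins, stood at 34.8 ± 4.47 in RO and 36.2 ± 3.24 in DMSO (SD, n = 3 each). ZNRF3 (ENSDARG00000062573), a ubiquitin ligase that removes Frizzled receptors from the cell surface, stood at 4.03 ± 0.680 in RO and 5.57 ± 2.59 in DMSO, a wide spread that came from DMSO values between 3.10 and 8.27.

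The Wnt ligands in the table overlapped between the groups. WNT11 (ENSDARG00000014796) had values of 19.3, 12.9 and 21.4 in the RO libraries, against 11.2, 16.3 and 14.0 in the DMSO libraries. RO replicate 3 lay among the DMSO libraries while RO replicates 2 and 4 lay above all of them, and the log2 fold change of 0.35 had a 95% interval of -0.14 to 0.83 (adjusted p = 0.559). WNT4 (ENSDARG00000071208) had values of 15.6, 13.1 and 10.95 in the RO libraries, against 10.2, 12.6 and 10.1 in the DMSO libraries (log2 fold change 0.25, adjusted p = 0.646). WNT2B (ENSDARG00000032234) had 17 to 29 reads per library in RO and 18 to 23 in DMSO, and a log2 fold change of -0.07 (95% interval -0.67 to 0.53). These 3 genes are the whole measured ligand group, so nothing is said here of the other Wnt ligands.

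Genes that release or assist the ligands did not pass. WLS (ENSDARG00000009534), the carrier that brings Wnt proteins to the cell surface, had values of 102.2, 106.7 and 126.1 in the RO libraries, against 109.9, 114.8 and 108.1 in the DMSO libraries. All DMSO values of WLS fell within the span of the RO values, and the 95% interval of its log2 fold change was -0.25 to 0.26. RSPO3 (ENSDARG00000070081), a secreted agonist that protects Frizzled receptors from ZNRF3, had values of 28.2, 26.5 and 21.9 in the RO libraries, against 22.9, 33.3 and 25.3 in the DMSO libraries. PORCN (ENSDARG00000052455), the enzyme that attaches the lipid to Wnt proteins, rested on 8 to 14 reads per RO library and 11 to 16 per DMSO library, with a log2 fold change of -0.34 (95% interval -1.06 to 0.37).

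**Figure D2:**
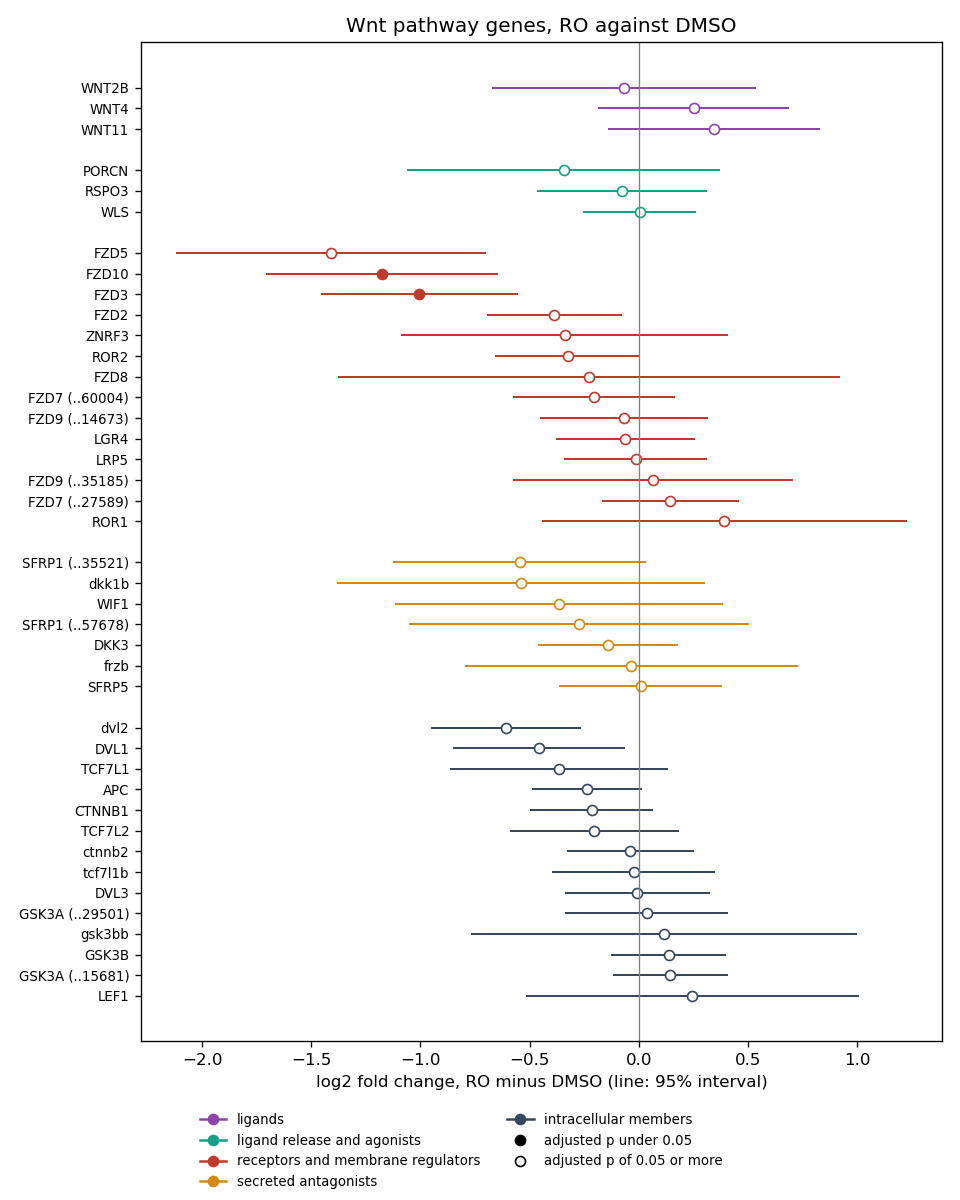
Log2 fold change of RO minus DMSO (x axis) for the 41 genes, by role, with the 95% interval from limma as a line; the digits in brackets are the end of the gene ID where a symbol stands for more than 1 ID. The filled points are FZD10 (-1.17) and FZD3 (-1.01), the members with an adjusted p under 0.05, and FZD5, at -1.41, is open.

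No secreted antagonist passed. The log2 fold changes of 6 of the 7 lay below 0, beside 51.6% of all genes, and the median was -0.27. Their adjusted p-values ran from 0.404 up to 0.988. SFRP5, at 0.0084, turned below 0 with quantile normalization. The gene frzb turned above 0 without DMSO replicate 3 (0.31) and without RO replicate 3 (0.34). SFRP1 (ENSDARG00000035521), a secreted protein that binds Wnt ligands, had values of 8.38, 12.04 and 11.9 in the RO libraries, against 21.1, 10.3 and 17.9 in the DMSO libraries. DMSO replicate 2 lay among the RO libraries, and the log2 fold change of -0.55 had a 95% interval of -1.12 to 0.03 (adjusted p = 0.404). The second SFRP1 gene (ENSDARG00000057678) had 8 to 18 reads per RO library and 9 to 16 per DMSO library, and its groups overlapped. SFRP5 (ENSDARG00000039041), of the same family, had values of 57.8, 37.7 and 49.2 in the RO libraries, against 41.1, 52.1 and 49.1 in the DMSO libraries, and the DMSO values lay within the RO span.

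The Frizzled-related gene frzb (ENSDARG00000018383) varied more within the groups than between them. Its values were 29.3, 15.3 and 39.4 in the RO libraries, against 23.3, 18.8 and 43.5 in the DMSO libraries. The highest library was 2.57 times the lowest within RO and 2.31 times within DMSO, on 70 to 162 reads, and the 95% interval of the log2 fold change was -0.79 to 0.72. The gene dkk1b (ENSDARG00000045219), an inhibitor that binds the LRP5 and LRP6 coreceptors, stood at 1.40, 2.19 and 1.70 in the RO libraries, against 2.92, 1.81 and 3.87 in the DMSO libraries, on 5 to 13 reads. The groups of dkk1b overlapped (log2 fold change -0.54, adjusted p = 0.607). WIF1 (ENSDARG00000005541), which binds Wnt ligands outside the cell, had values of 3.07, 1.53 and 2.92 in the RO libraries, against 3.16, 3.36 and 3.27 in the DMSO libraries. Its groups did not overlap, but the gap was less than the worth of 1 read, and it did not pass (adjusted p = 0.703). DKK3 (ENSDARG00000070683), a divergent Dickkopf protein, had values of 57.5, 42.0 and 47.2 in the RO libraries, against 48.6, 56.8 and 55.7 in the DMSO libraries, which overlapped.

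Among the intracellular members the Dishevelled genes dvl2 and DVL1 had the lowest log2 fold changes, and no intracellular member passed. Dishevelled proteins relay the signal from Frizzled in both branches of the pathway. The gene dvl2 (ENSDARG00000056184) had values of 17.0, 17.7 and 16.3 in the RO libraries, against 23.1, 30.2 and 25.9 in the DMSO libraries. The RO libraries lay close together and below all DMSO libraries, with a log2 fold change of -0.61 (SE 0.154, 95% interval -0.95 to -0.27, adjusted p = 0.0995). DVL1 (ENSDARG00000010515) had values of 10.3, 12.7 and 10.95 in the RO libraries, against 16.3, 13.7 and 17.3 in the DMSO libraries, with groups that did not overlap (log2 fold change -0.46, adjusted p = 0.292). DVL3 (ENSDARG00000015707) had values of 28.2, 25.0 and 24.1 in the RO libraries, against 26.7, 28.4 and 22.6 in the DMSO libraries, and the groups overlapped. The 95% interval for DVL3 was -0.33 to 0.32.

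The destruction complex and beta-catenin genes in the table did not pass, and no gene named axin was among them. APC (ENSDARG00000058868), a part of the complex, had values of 80.2, 80.8 and 69.6 in the RO libraries, against 89.7, 90.6 and 91.1 in the DMSO libraries. The groups did not overlap, and the log2 fold change of -0.24 did not pass (adjusted p = 0.395). CTNNB1 (ENSDARG00000014571), which encodes beta-catenin and had the most reads of the 41 genes, had values of 675, 641 and 813 in the RO libraries, against 748, 868 and 848 in the DMSO libraries. RO replicate 4 lay above DMSO replicate 1, and the 95% interval was -0.49 to 0.06. The second beta-catenin gene, ctnnb2 (ENSDARG00000023472), had values of 104.7, 138.6 and 130.9 in the RO libraries, against 128.4, 117.2 and 136.9 in the DMSO libraries, all within the RO span. GSK3B (ENSDARG00000017803), the kinase that marks beta-catenin for breakdown, had values of 53.3, 57.2 and 53.5 in the RO libraries, against 46.7, 50.1 and 52.4 in the DMSO libraries. It was the only member of the 41 whose RO libraries all lay above the DMSO libraries, which 9.32% of all genes did, and it did not pass (log2 fold change 0.14, adjusted p = 0.675). The 2 GSK3A genes, at 0.14 (ENSDARG00000015681) and 0.04 (ENSDARG00000029501), and gsk3bb, on 5 to 13 reads per library, had overlapping groups.

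The nuclear partners of beta-catenin all had overlapping groups. TCF7L1 (ENSDARG00000038159), which mainly acts as a repressor, had values of 12.01, 16.9 and 21.7 in the RO libraries, against 24.3, 23.2 and 17.0 in the DMSO libraries (log2 fold change -0.37, adjusted p = 0.540). TCF7L2 (ENSDARG00000004415) stood at 16.5 ± 3.03 in RO and 18.9 ± 1.07 in DMSO, and tcf7l1b (ENSDARG00000007369) at 13.98 ± 0.641 in RO and 14.3 ± 1.64 in DMSO (SD, n = 3 each). LEF1 (ENSDARG00000031894), both a partner and a target of beta-catenin, stood at 5.59, 3.50 and 4.38 in the RO libraries, against 4.86, 4.65 and 2.08 in the DMSO libraries. It rested on 7 to 20 reads, and its interval of -0.51 to 1.01 does not separate a fall from a rise.

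**Figure D3:**
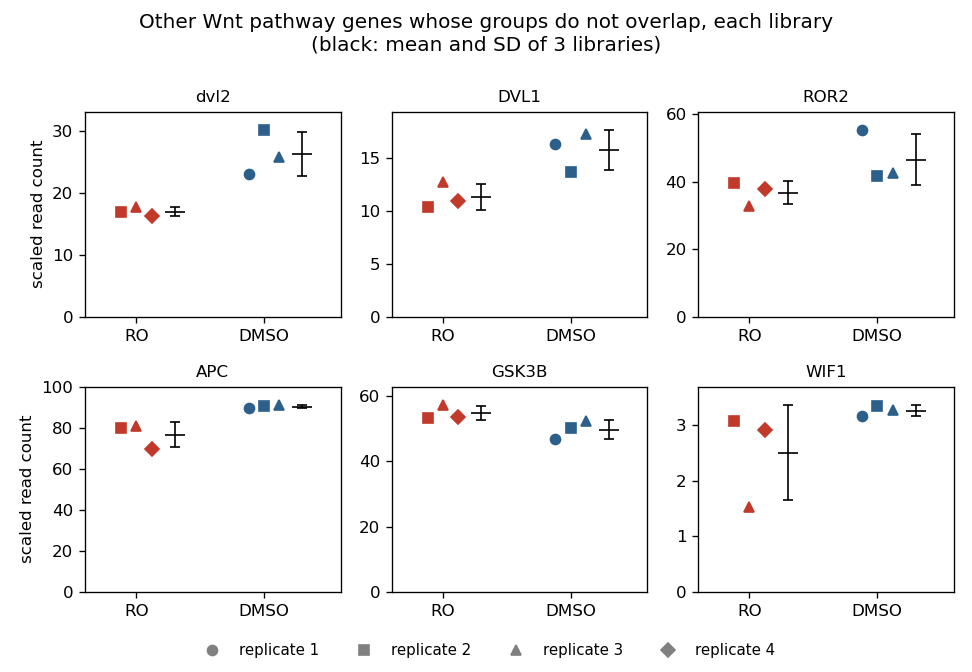
Scaled read count (y axis, from 0) in each library of the 6 members outside the Frizzled family whose RO and DMSO libraries do not overlap, RO at left and DMSO at right; black bars give the mean and SD of 3 libraries. In 5 of them RO lies below DMSO and in GSK3B above, and none of the 6 passed the test.

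Across all 41 members the log2 fold change lay below 0 in 29 and above 0 in 12, and its median was -0.08, against -0.01 for all genes. Lower values in all RO libraries than in any DMSO library were seen for 9 members, FZD3, FZD10, FZD5, FZD2, ROR2, WIF1, dvl2, DVL1 and APC. They are 22.0% of the members, beside 9.35% of all genes. With an unadjusted p under 0.05 there were 6 lower members and 0 higher ones from limma, where 6.61% of all genes were lower and 6.79% higher at that level. With each library left out in turn, 10 to 13 members had lower values with no overlap, 24.4% to 31.7% of the members, beside 14.0% to 16.2% of all genes. Groups already apart stay apart when a library is removed, so these counts could not fall.

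**Figure D4:**
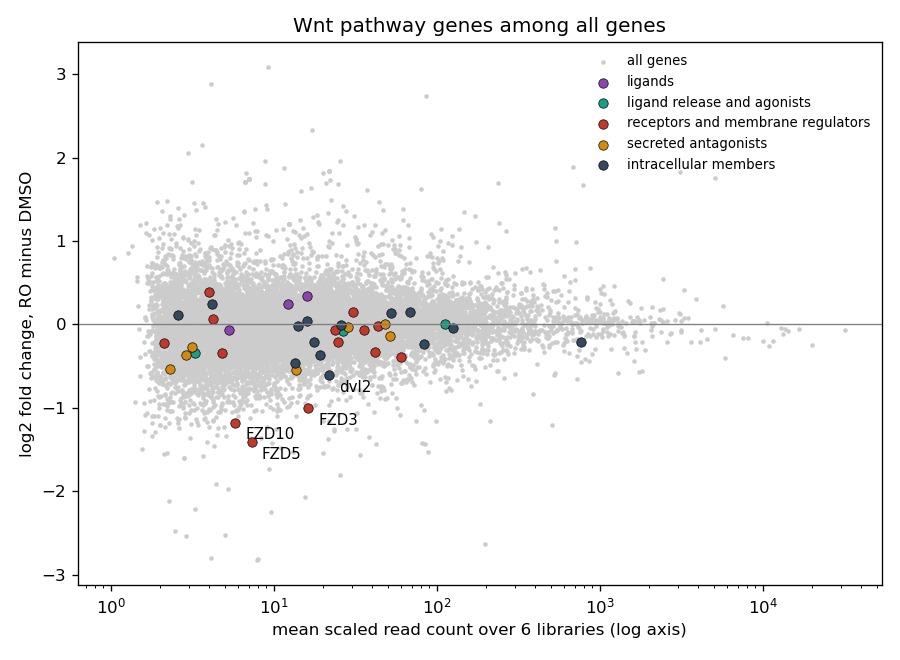
Log2 fold change of RO minus DMSO (y axis) against the mean scaled read count over 6 libraries (x axis, log scale) for all 14211 genes in grey and the 41 members in the colours of their roles. FZD3, FZD10 and FZD5 lie below the other members, of which most lie within 0.5 of 0.

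Other genes of the pathway were counted in lists, read beside the 0.387% of all genes that passed as lower and the 0.647% as higher. Of 45 genes of beta-catenin turnover and its transcription partners, 1 fell, 0 rose and 44 did not pass, with a median log2 fold change of 0.01. At an unadjusted p under 0.05, 3 were higher and 2 lower (4.44%), beside 6.79% of all genes higher and 6.61% lower. Groups that did not overlap were seen for 8 (17.8%) with RO higher and 3 (6.67%) with RO lower, beside 9.32% and 9.35% of all genes. The gene that fell was SIAH1 (ENSDARG00000030871), a ubiquitin ligase known for an APC-linked route of beta-catenin breakdown, with values of 16.2, 14.9 and 20.4 in the RO libraries, against 34.8, 36.4 and 26.2 in the DMSO libraries (log2 fold change -0.90, adjusted p = 0.0442). Of 27 genes of the calcium and JNK branch, 1 rose, 0 fell and 26 did not pass, with a median of -0.01. In this list 3 were higher and 2 lower (7.41%) at an unadjusted p under 0.05. Its groups did not overlap for 4 genes (14.8%) with RO higher and 1 (3.70%) with RO lower. The gene that rose was rhoab (ENSDARG00000094673), a RhoA-type small GTPase, with values of 280, 239 and 292 in the RO libraries, against 168, 122 and 138 in the DMSO libraries (log2 fold change 0.93, adjusted p = 0.0122). In SIAH1 and in rhoab the groups did not overlap. SIAH1 lost its call on removal of any 1 of 4 libraries (replicates 1 and 2 of DMSO, replicates 2 and 3 of RO), at adjusted p up to 0.160, and rhoab when DMSO replicate 2 was left out (adjusted p = 0.0663). Both calls were also lost without the mean-variance trend of limma (adjusted p = 0.163 for SIAH1 and 0.140 for rhoab).

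None of the 19 measured target and feedback genes of beta-catenin passed in limma, and the median log2 fold change was -0.19. Only 20 of the 43 symbols of this list were matched, so it covers the targets in part. An unadjusted p under 0.05 was reached by 1 higher and 4 lower genes (21.1% lower), beside 6.79% of all genes higher and 6.61% lower. The smallest p-values were those of MYC (ENSDARG00000007241), a growth-promoting transcription factor, at 120 ± 17.6 in RO and 190 ± 32.6 in DMSO (adjusted p = 0.0820), and TIAM1 (ENSDARG00000025920), an activator of the GTPase Rac, at 9.41 ± 2.26 in RO and 18.4 ± 4.47 in DMSO (SD, n = 3 each, adjusted p = 0.0898). Both are regulated by many other signals. This MYC gene passed in DESeq2 with all 6 libraries (adjusted p = 0.00740) and in limma when DMSO replicate 3 was left out (adjusted p = 0.0459). This TIAM1 gene passed with the replicate block (adjusted p = 0.0196 in the libraries numbered 2 and 3), a fit with few libraries behind its measure of spread. A second MYC gene (ENSDARG00000045695) went the other way, at 4.92 ± 1.33 in RO and 3.13 ± 0.869 in DMSO, with overlapping groups (adjusted p = 0.483). A second TIAM1 gene (ENSDARG00000078430) had a log2 fold change of -0.47, also with overlapping groups (adjusted p = 0.289). None of the 21 genes of ligand handling outside the cell passed in limma, with 0 higher and 2 lower (9.52%) at an unadjusted p under 0.05 and a median of -0.13. The smallest p-values were those of GPC4 (ENSDARG00000015472), a glypican that in zebrafish supports Wnt-directed cell movement (log2 fold change -0.40, adjusted p = 0.253), and SOST (ENSDARG00000061259), an inhibitor that binds LRP coreceptors (-0.43, adjusted p = 0.307). Of 18 receptor partners and planar polarity genes none passed in limma, with 0 higher and 3 lower (16.7%) at an unadjusted p under 0.05 and a median of -0.07. PRICKLE1 (ENSDARG00000045694), a core planar polarity gene, had a log2 fold change of -0.55 (adjusted p = 0.246), and NCAM1 (ENSDARG00000056181), a neural adhesion gene, -0.92 (adjusted p = 0.296).

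Markers of several cell types differed in level between the groups, and their part in the Frizzled and Dishevelled values was not tested. Of 17 epicardium and fibroblast markers, 14 lay below 0, with a median log2 fold change of -0.45. None of the 17 passed in limma with all 6 libraries. At an unadjusted p under 0.05, 8 (47.1%) were lower and 0 higher, beside 6.61% of all genes lower. Groups that did not overlap, with RO lower, were seen for 7 (41.2%), beside 9.35% of all genes. With RO higher there was 1 (5.88%, beside 9.32% of all genes), the epicardial marker ALDH1A2 (log2 fold change 0.21, adjusted p = 0.492). POSTN (0.54) and DCN (0.04) also lay above 0, with overlapping groups. The summed level of the 17 was 7228 to 9250 in the RO libraries and 9201 to 11205 in the DMSO libraries, so the ranges overlapped. Collagen genes made up much of it, with COL1A1 at a mean of 1479 in RO and 2133 in DMSO, and col1a1a at 1422 and 2068. The smallest p-values in that list were those of wt1b, an epicardial transcription factor, at 10.2 ± 1.85 in RO and 18.7 ± 2.41 in DMSO (adjusted p = 0.0723), and COL1A2, a collagen chain, at 1035 ± 196 in RO and 1538 ± 143 in DMSO (SD, n = 3 each, adjusted p = 0.108). COL1A2 passed in DESeq2 (adjusted p = 0.0120) and wt1b with array weights (adjusted p = 0.0408). Of 13 endothelium and endocardium markers, 3 rose, klf2b, plvapb and flt1, while 5 lay below 0, and the median log2 fold change was 0.13. Calls in this and the following lists are read beside the 0.647% of all genes that passed as higher. Groups that did not overlap, with RO higher, were seen for 5 (38.5%), beside 9.32% of all genes. TIE1 was lower in RO with groups that did not overlap (log2 fold change -0.28, adjusted p = 0.331). The summed level was 1577 to 1794 in RO and 1061 to 1283 in DMSO. Within that sum the mean of klf2a was 358 in RO and 175 in DMSO, and that of klf2b 356 in RO and 117 in DMSO. Of 9 thrombocyte markers 1 rose, FERMT3 (ENSDARG00000030938), with a summed level of 231 to 388 in RO and 183 to 218 in DMSO. In this list 8 lay above 0, with a median log2 fold change of 0.72. At an unadjusted p under 0.05, 5 were higher and 0 lower, beside 6.79% of all genes higher. Non-overlapping groups with RO higher were seen for 3 (33.3%). A second FERMT3 gene (ENSDARG00000079267) stood at 13.6 ± 1.78 in RO and 10.7 ± 2.91 in DMSO, with overlapping groups (adjusted p = 0.532). Of 16 macrophage and neutrophil markers 0 passed in limma, with a summed level of 790 to 953 in RO and 571 to 838 in DMSO. At an unadjusted p under 0.05, 5 were higher and 0 lower, beside 6.79% of all genes higher. Of the 16, 12 lay above 0 and 4 below, with a median log2 fold change of 0.19. The smallest p-values of this list were those of MPEG1 (ENSDARG00000043093) and MMP9 (adjusted p = 0.141 and 0.152), both higher in RO. A second MPEG1 gene (ENSDARG00000055290) stood at 52.8 ± 3.10 in RO and 46.2 ± 13.98 in DMSO, with overlapping groups (adjusted p = 0.663). The gene mmp13a went the other way (log2 fold change -0.81, adjusted p = 0.387). Of 15 cardiomyocyte markers 1 rose, MYH6 (ENSDARG00000079564), while 11 lay below 0, and the list's median was -0.13. A second myh6 gene (ENSDARG00000090637) ran from 1.31 to 106.8 in RO and from 3.27 to 60.4 in DMSO, with overlapping groups. The first MPEG1 gene (ENSDARG00000043093) passed with the replicate block (adjusted p = 0.0382 in the libraries numbered 2 and 3). That fit has few libraries behind its measure of spread. The 5 marker calls were lost when some single libraries were left out, while each log2 fold change stayed above 0. All 5 were also lost without the mean-variance trend of limma. Quantile normalization ended the calls of flt1 and MYH6, robust empirical Bayes that of klf2b, and the replicate block with all 6 libraries that of MYH6. The gene klf2b missed the threshold when DMSO replicate 2 was dropped (adjusted p = 0.0663), and plvapb held only when DMSO replicate 3 or RO replicate 2 was the library dropped (adjusted p up to 0.121 otherwise). Those of flt1, FERMT3 and MYH6 held without DMSO replicate 1, RO replicate 4 and RO replicate 2, in that order, and were lost without any other library, at adjusted p up to 0.177 for MYH6 and 0.178 for FERMT3. Across the libraries left out the log2 fold changes ran from 0.69 to 0.81 for plvapb, 0.67 to 0.92 for flt1, 0.83 to 1.12 for FERMT3, 0.60 to 0.78 for MYH6 and 1.45 to 2.05 for klf2b. No marker of these lists stood at 0 in any library.

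**Figure D5:**
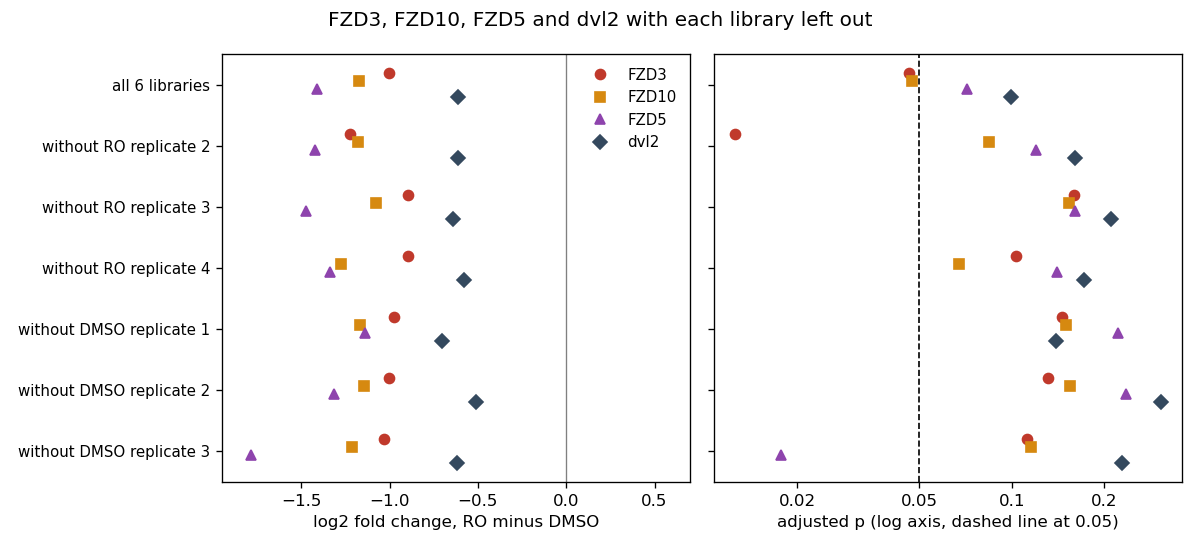
Log2 fold change of RO minus DMSO (left x axis) and adjusted p from limma (right x axis, log scale, dashed line at 0.05) of FZD3, FZD10, FZD5 and dvl2 with all 6 libraries and with each library left out in turn. All fold changes stay below 0, while the adjusted p of FZD3 lies under the line in 2 of the 7 fits and that of FZD10 only with all 6 libraries.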

How the data were processed

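RNA of 6 libraries, 3 RO and 3 DMSO, was analysed. The authors deposited a table of scaled signal. In each library 100% of its values could be turned back into whole read counts, to within 0.01 read, with a single factor. Per the submitters' processing notes, the tools were edgeR, RSEM 1.2.3, Bowtie2 2.0.6, CASAVA 1.8 and cutadapt 1.6.1, with no role given, and the build was Zv9. Whether counting used strand is not given in the sources used here, nor is the annotation release, so a gene and an overlapping antisense gene were not told apart.

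Symbols came from a table of gene IDs, which matched 11589 of the 14211 IDs and often gives the form of the human gene, so that GSK3A and GSK3B were taken for gsk3aa, gsk3ab and gsk3ba. Matching by synonyms added 0 members. All genes of the table exceeded 1 in at least 3 libraries, and 40 of the 41 members lay above 1 in all 6. The members and lists were chosen with earlier results of these data known. Of 264 symbols in 10 lists 197 were matched, either by the symbol itself or without its paralog letter, and members were left out of the lists. No sequence was analysed here.

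Values were taken as log2(value + 0.5) and tested for RO minus DMSO with limma 3.58.1 (limma-trend, R 4.3.3), two-sided, with no covariate and no further scaling. Adjusted p-values are those of Benjamini and Hochberg. Every adjusted p is from this fit, taken over all 14211 genes, unless another tool, setting or set of libraries is named. Fold changes on this scale understate the change of low genes. The minimum of 1 in 3 libraries removed no gene. The main limma fit, edgeR and DESeq2 were run on simulated data with known folds, and the other alternatives were not. Within groups the libraries differed by more than counting noise (chi-square per degree of freedom 5.16 to 12.3), so none repeats another. Values in all libraries are given for members past the threshold or with an unadjusted p under 0.05, for the 2 with the highest values in each role, and for a fixed set of 8 names, of which LEF1, dkk1b, WNT11 and frzb were in the table; others are given as well. Of each list the passing genes, or the 2 with the smallest p, are named. Alternatives were other pseudocounts, minimum values, scalings, spread models and thresholds, the replicate number as a block, each library left out, and DESeq2 1.42.0 and edgeR 4.0.16 run on recovered reads.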

Additional observations from a re-analysis of the deposited data

How the results depend on the processing

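The members lower in RO past the threshold numbered 2, FZD3 and FZD10, with pseudocounts of 0.1 and 1, median-of-ratios scaling, robust empirical Bayes, array weights and edgeR. TMM scaling and no minimum value repeated the main fit, with the same 147 genes passing, so they are no separate check. Under every alternative 0 members were higher. The number lower was 1 with a minimum of 5 in 3 libraries (FZD3, with FZD10 at adjusted p = 0.055) and 1 with DESeq2, which gave FZD10 no adjusted p. It was 0 with quantile normalization (FZD3 0.0534, FZD10 0.0591) and 0 without the mean-variance trend of limma (FZD3 0.163, FZD10 0.0826), and 4 at a threshold of 0.1, where FZD5 and dvl2 joined. Leaving out single libraries gave 0 to 1. Over all genes 147 passed, against 1 without the trend, 318 at a threshold of 0.1 and 22 to 105 with a library left out. DESeq2 called 240 of the 7874 genes it gave an adjusted p. The members with lower, non-overlapping values, a count chosen after seeing the data, numbered 9. There were 9 with median-of-ratios scaling and 8 with quantile normalization, while TMM scaling again repeated the main count. With a library left out there were 10 to 13. Groups already apart cannot come to overlap when a library is removed, so that count could not fall and is no check.

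The replicate numbers are not said to pair libraries. The deviations of same-numbered libraries from their group means correlated at 0.12 for number 2 and 0.091 for number 3. The other pairs of an RO and a DMSO library lay lower, from -0.12 to 0.043. Deviations cancel out within each group, so these correlations depend on each other and cannot decide whether libraries were paired. With the replicate block 405 genes passed with all 6 libraries entered and 458 with only those numbered 2 and 3, and 0 members did. In limma FZD3 had an adjusted p of 0.0789 and 0.0684, and FZD10 of 0.0734 and 0.0689. Replicate 1 exists only in DMSO and replicate 4 only in RO, so the block leaves them no part in the fold change. The block fits thus rest on replicates 2 and 3 of each group and have little left to measure spread. Their larger numbers of passing genes are not firmer than those of the main fit. Both forms therefore gave the same log2 fold changes (-0.87 for FZD3, -1.26 for FZD10) and are not separate results.

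Of 41 members 16 changed direction under at least 1 alternative, each of them uncalled. With the replicate block, in both forms, the log2 fold changes turned to 0.15 for LRP5, -0.093 for WLS, 0.0066 for FZD9 (ENSDARG00000014673), 0.065 for DVL3, -0.12 for SFRP5, 0.28 for FZD8 and 0.030 for ZNRF3. Quantile normalization turned WLS (-0.055) and SFRP5 (-0.018). Array weights turned tcf7l1b (3.012e-05), ctnnb2 (0.019), FZD9 (ENSDARG00000035185, -0.000175) and SFRP5 (-0.086). With each library left out, log2 fold changes ran from -0.099 to 0.062 for DVL3, -0.73 to 0.20 for FZD8, -0.21 to 0.072 for FZD9 (ENSDARG00000014673), -0.078 to 0.25 for FZD9 (ENSDARG00000035185), -0.063 to 0.15 for GSK3A (ENSDARG00000029501), -0.095 to 0.43 for LEF1, -0.13 to 0.072 for LRP5, -0.19 to 0.077 for RSPO3, -0.13 to 0.17 for SFRP5, -0.086 to 0.064 for WLS, -0.28 to 0.10 for WNT2B, -0.12 to 0.082 for ctnnb2, -0.33 to 0.34 for frzb, -0.22 to 0.32 for gsk3bb and -0.11 to 0.047 for tcf7l1b. The cause of these shifts was not tested. Depth limits members under about 20 reads per library, such as dkk1b, WIF1, PORCN and FZD8, and also FZD10, with 12 to 16 reads in RO, and FZD5, with 13 to 18.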
